A study of Homo sapiens with 36 samples.

Results

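Major histocompatibility complex (MHC) class II antigen presentation was described here through 10 genes: HLA-DRA, HLA-DRB1, HLA-DPA1, HLA-DPB1, HLA-DQA1, HLA-DQB1, HLA-DMA, HLA-DMB, CD74 and CIITA. They were chosen by name as genes of the class II pathway, though with earlier results of these data known. All 10 were found among the 35470 gene symbols to which transcripts were summed. RNA was sequenced in MOLM-13 and MONO-MAC-6, established human acute myeloid leukaemia cell lines labelled as wild type. MOLM-13 received DMSO, the vehicle, or 0.125 µM A9, and MONO-MAC-6 received DMSO or 0.25 µM A9, each for 72 h. A9 is a PROTAC, a molecule that brings a target protein to the degradation machinery of the cell. The series' design text names IKK2 and NR4A1 as its targets, while the title names IKK1 and NR4A1.

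Each group held 9 libraries, numbered as 3 samples with 3 repeats each, and the 3 repeats of a sample were averaged, so that n = 3 samples per group throughout. The labels do not say whether the 3 samples came from separate cultures, so p-values measure the spread between these samples, which may be technical. Each group is 1 cell line at 1 dose and 1 time, so a line and its dose are confounded and cannot be told apart where the lines are compared. Levels are TPM, a relative transcript abundance. They are corrected for transcript length and sum to 1000000 in each of the 36 libraries. The values hold no counts, so the depth behind each of them is unknown. In bulk RNA, a higher level per cell and more cells that express a gene cannot be told apart.

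Class II molecules are pairs of an alpha and a beta chain that carry peptides from the endosome to the cell surface, where CD4+ T cells read them. Monocytes, dendritic cells and B cells make them, and CD74, the invariant chain, fills their groove until HLA-DM (HLA-DMA with HLA-DMB) exchanges its last fragment for a peptide. CIITA is the coactivator that switches these genes on. It does not bind DNA itself but docks on RFX, CREB and NF-Y factors that sit on an X box and a Y box in the promoters of the chains, of HLA-DM and of CD74.

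The X and Y boxes are shown because they are the promoter elements known as the docking sites through which CIITA acts on class II genes. RefSeq promoter windows (GRCh38.p14), from 250 bases before to 50 bases after a start site, were at hand for 8 members (9 windows, since HLA-DPA1 had a pair of starts). HLA-DRA and CIITA had none. Each window was searched on both strands for AGNNACNGA as an X box, for ATTGG as a Y box, and for a pair in which the Y box starts 10 to 40 bases after the X box on the same strand. The 2 motifs share no overlap within a pair. The letters were written with these windows in view, so the share of members that match is a description. In the 4 members with a pair, printed 5′ to 3′ on the strand of the gene, the capitals mark the X box and then the Y box.
HLA-DRB1: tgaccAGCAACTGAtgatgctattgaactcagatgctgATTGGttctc
HLA-DQA1: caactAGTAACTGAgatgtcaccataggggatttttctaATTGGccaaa
HLA-DQB1: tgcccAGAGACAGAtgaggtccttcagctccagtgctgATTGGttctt
HLA-DMA: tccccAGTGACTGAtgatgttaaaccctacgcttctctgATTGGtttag
These lie at chr6:32589885-32589932 (minus strand), chr6:32637299-32637347 (plus strand), chr6:32666736-32666783 (minus strand) and chr6:32953167-32953215 (minus strand). The X box starts 79 bases before the start site of HLA-DRB1, 102 before that of HLA-DQA1, 121 before that of HLA-DQB1 and 113 before that of HLA-DMA. The gap between the boxes was 24 bases in HLA-DRB1 and HLA-DQB1, and 25 in HLA-DQA1 and HLA-DMA.

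An X box match was found in 6 of the 9 member windows and in 15.3% of all 35116 windows, and a Y box match in 7 of 9 against 34.6%. The pair was found in 4 of 9 member windows and in 0.39% of all windows. HLA-DMB held a match to each box without the spacing. CD74 and HLA-DPB1 held a Y box alone, and 1 of the HLA-DPA1 windows held an X box alone. No match says only that these letters are not in the window. As shown in the following paragraphs, the 4 members with a pair did not share a level: HLA-DRB1 and HLA-DMA were far higher in MONO-MAC-6, while HLA-DQA1 and HLA-DQB1 were low in both lines.

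Because chain genes differ between people, human reference annotation carries several copies of the class II region, and where a read is counted depends on which copy resembles the allele of the cell. The region is on chromosome 6 (GRCh38, GENCODE 29), with HLA-DRA at 32439842 to 32445046, HLA-DRB1 at 32578769 to 32589848, HLA-DQA1 at 32628179 to 32647062 and HLA-DQB1 at 32659467 to 32668383. HLA-DMB lies at 32934629 to 32941070, HLA-DMA at 32948613 to 32969094, HLA-DPA1 at 33064569 to 33080775 and HLA-DPB1 at 33075926 to 33087201. CD74 lies at 150401637 to 150412929 on chromosome 5 and CIITA at 10866222 to 10943021 on chromosome 16. All 8 HLA members had transcripts outside the primary assembly, which the annotation names by gene but does not place on a haplotype, and CD74 and CIITA had none.

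HLA-DRA shows how much this matters. Of its 21 listed transcripts, 2 are in the primary assembly. They held 0.0161 of 54.2 TPM in MONO-MAC-6 (mean of 6 samples), or 0.0297%, and were at 0 in MOLM-13. In MONO-MAC-6 the highest HLA-DRA transcript, ENST00000442960, averaged 13.2 TPM with DMSO and 16.2 with A9. Another 3, ENST00000383259, ENST00000411524 and ENST00000414698, had equal values to 4 decimals in every sample, with means of 10.9 and 11.7 TPM. Equal values on several transcripts mean that the split between these copies carries no information, so only the sum per gene is used below. The little HLA-DRA listed in MOLM-13 was on another transcript, ENST00000383127, at 0.262 TPM with DMSO and 0.380 with A9, which in MONO-MAC-6 was at 0 with DMSO and at 0.0171 with A9.

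**Figure D1:**
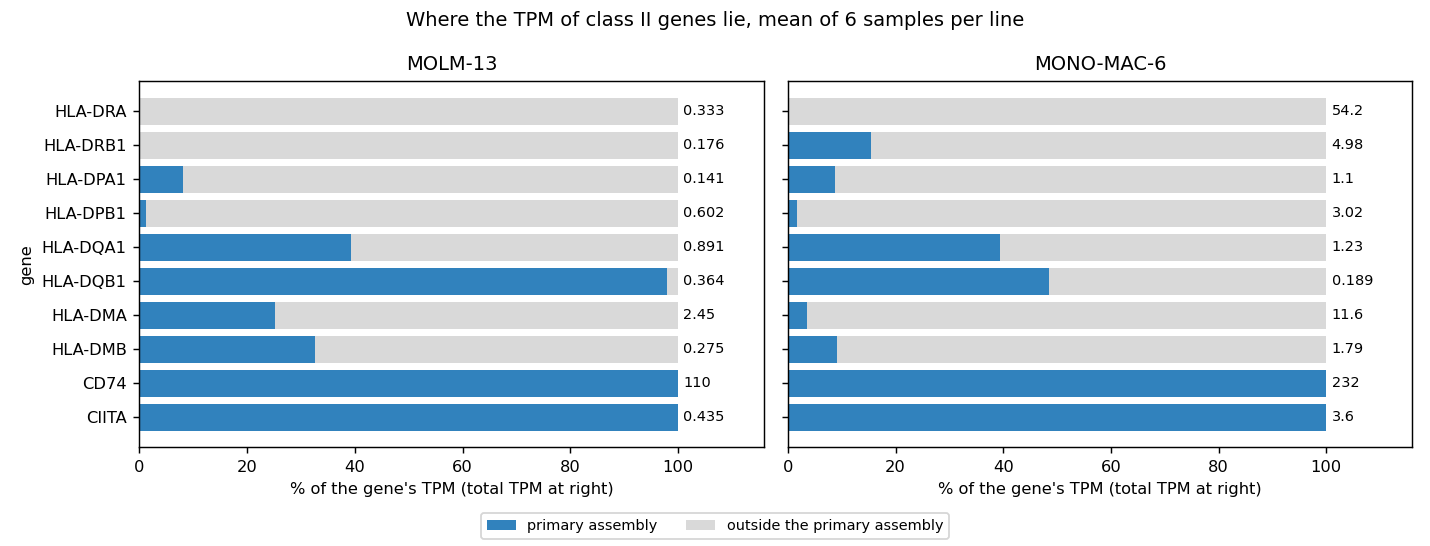
Share of each gene's TPM (horizontal axis, %) on transcripts in the primary assembly (blue) and outside it (grey), as the mean of 6 samples per line, with the gene's total TPM at the right. HLA-DRA, HLA-DPA1 and HLA-DPB1 lie nearly all outside in both lines, while CD74 and CIITA lie wholly in the primary assembly.

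The other HLA members fell between these extremes. The primary assembly held 15.5% of HLA-DRB1, 3.47% of HLA-DMA, 9.18% of HLA-DMB, 8.79% of HLA-DPA1 and 1.72% of HLA-DPB1 in MONO-MAC-6. In MOLM-13 it held 0% of HLA-DRB1, 25.2% of HLA-DMA, 32.7% of HLA-DMB, 8.04% of HLA-DPA1 and 1.25% of HLA-DPB1. HLA-DQB1 was at 98.0% in MOLM-13 and at 48.5% in MONO-MAC-6. HLA-DQA1 was alike in both, at 39.3% and 39.4%, but its primary-assembly level was almost wholly on a transcript annotated as a retained intron, ENST00000460633. The protein-coding primary transcripts of HLA-DQA1 were at 0 in MOLM-13 and at 0.0101 TPM in MONO-MAC-6. The 2 leading HLA-DQA1 transcripts outside the primary assembly have no annotated type here, so it was not tested whether the HLA-DQA1 level is coding mRNA.

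Class II genes were present in both lines, but at very different levels. In DMSO, CD74 was the highest member in both, HLA-DRA was the second in MONO-MAC-6 and under 0.4 TPM in every MOLM-13 sample, and 9 of the 10 members had a higher mean in MONO-MAC-6. CD74 stood at 124, 115 and 111 TPM in the MOLM-13 DMSO samples and at 182, 241 and 244 TPM in those of MONO-MAC-6, so the lines did not overlap and sample 1 of MONO-MAC-6 was the lowest of its group. HLA-DRA, the alpha chain of HLA-DR, stood at 0.285, 0.186 and 0.387 TPM in MOLM-13 and at 45.9, 56.1 and 51.0 TPM in MONO-MAC-6. Its partner HLA-DRB1 stood at 0.174, 0.144 and 0.220 TPM against 5.71, 5.70 and 4.10 TPM. Both HLA-DR chains were thus near 0 in every MOLM-13 DMSO sample, beside a CD74 level above 110 TPM.

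The HLA-DP pair was lower than HLA-DR in MONO-MAC-6. HLA-DPB1, the beta chain, stood at 0.861, 0.708 and 0.236 TPM in MOLM-13 and at 3.30, 3.24 and 3.10 TPM in MONO-MAC-6. HLA-DPA1, the alpha chain, stood at 0.0708, 0.101 and 0.333 TPM against 0.695, 1.65 and 1.34 TPM, again with no overlap between the lines. These 2 genes overlap on opposite strands, and the labels do not say whether libraries kept the strand, so reads from the overlap cannot be assigned with certainty. HLA-DQA1 was at 0.916, 0.877 and 0.847 TPM in MOLM-13 and at 0.980, 1.10 and 1.11 TPM in MONO-MAC-6, close to each other but without overlap. HLA-DQB1 was at 0.177, 0.293 and 0.269 TPM against 0.106, 0.157 and 0.302 TPM, and was the only member with a lower mean in MONO-MAC-6.

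HLA-DM, the peptide exchange factor, was uneven in its 2 chains. HLA-DMA stood at 2.37, 2.17 and 1.76 TPM in MOLM-13 and at 10.8, 11.5 and 11.7 TPM in MONO-MAC-6. HLA-DMB stood at 0.279, 0.266 and 0.210 TPM against 1.79, 1.89 and 1.64 TPM. HLA-DMA lay above HLA-DMB in all 12 samples. HLA-DMA overlaps BRD2 on the opposite strand, which stood at 147 ± 9.75 TPM (SD, n = 3) in MOLM-13 DMSO and at 132 ± 35.8 TPM in MONO-MAC-6 DMSO. The part of BRD2 reads in the HLA-DMA level was not tested. CIITA stood at 0.440, 0.437 and 0.271 TPM in MOLM-13 and at 2.10, 3.01 and 3.09 TPM in MONO-MAC-6, where sample 1 was again the lowest.

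**Figure D2:**
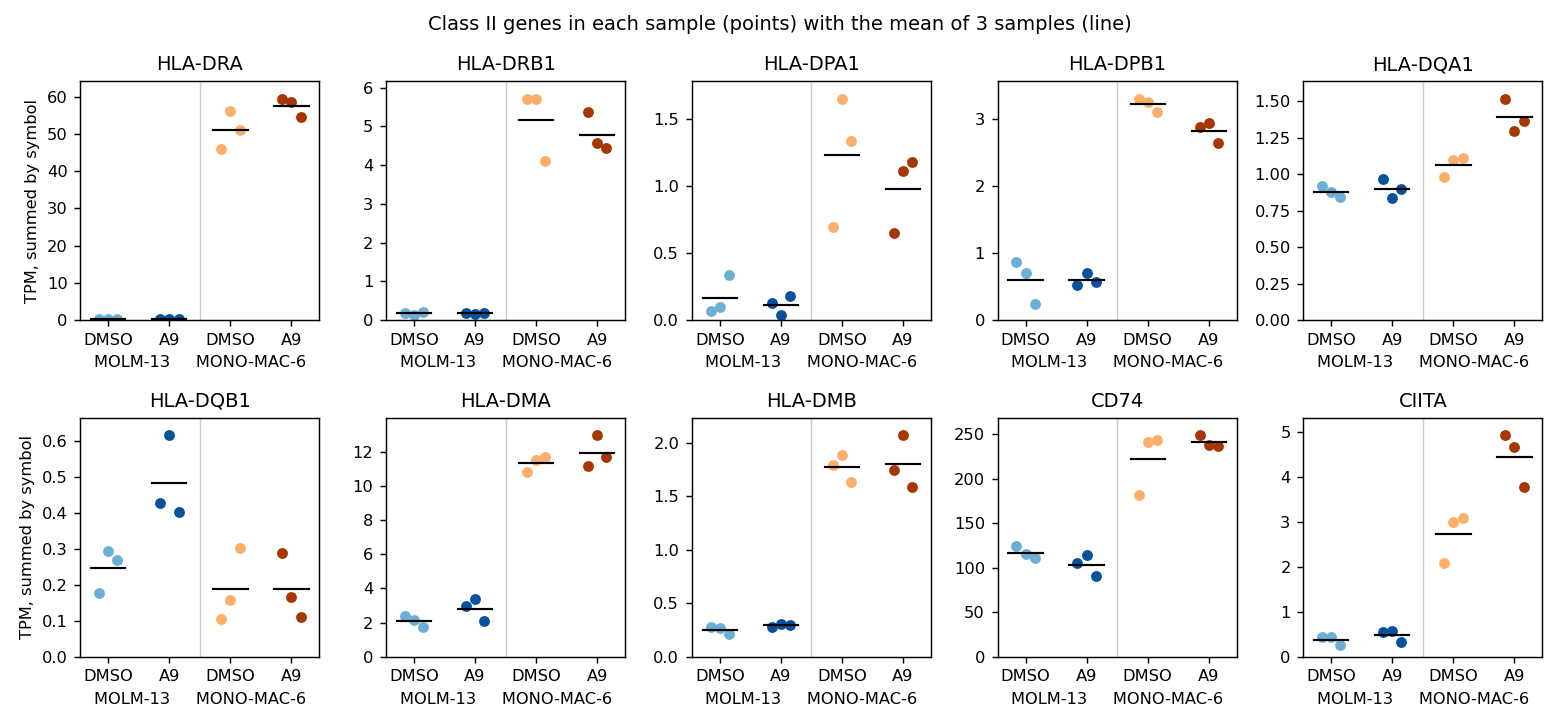
Level of each class II gene (vertical axis, TPM summed by symbol, linear and starting at 0, with its own scale in each panel) in the 3 samples of each group (points) with their mean (line). HLA-DRA is under 0.4 TPM in all 6 MOLM-13 samples and between 45.9 and 59.4 TPM in all 6 MONO-MAC-6 samples.

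In MOLM-13 DMSO the order of mean levels was CD74, HLA-DMA, HLA-DQA1, HLA-DPB1, CIITA, HLA-DRA, HLA-DMB, HLA-DQB1, HLA-DRB1 and HLA-DPA1. The ranges of neighbours overlapped at every step from HLA-DQA1 down, so no order is claimed there. In MONO-MAC-6 DMSO it was CD74, HLA-DRA, HLA-DMA, HLA-DRB1, HLA-DPB1, CIITA, HLA-DMB, HLA-DPA1, HLA-DQA1 and HLA-DQB1. The steps from CD74 down to HLA-DMB separated without overlap, though HLA-DPB1 (lowest 3.10 TPM) and CIITA (highest 3.09 TPM) nearly touched. HLA-DPA1 overlapped HLA-DMB and HLA-DQA1.

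The line difference was tested with limma on log2(TPM + 1), with Benjamini-Hochberg adjustment over all 12998 genes that reached a mean of 1 TPM in either DMSO group. All fold changes below are on this scale, which understates the change of genes near 0. HLA-DQB1 did not pass that filter, and only CD74 and HLA-DMA reached 1 TPM in MOLM-13, so the other 7 tested members passed through MONO-MAC-6 alone and the count has to be read as a description. At an adjusted p under 0.05, 8 of 9 tested members were called, all higher in MONO-MAC-6, where 49.1% of all tested genes were called and 30.6% were called as higher in MONO-MAC-6. Without the filter all 10 members were tested and again 8 were called. The median difference of the 9 was 1.42, beside 0.12 over all tested genes.

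The widest difference was that of HLA-DRA, at 5.34 (SE 0.141, adjusted p = 2.36e-06). With a pseudocount of 0.1 in place of 1, which weighs its near-0 level in MOLM-13 more, it was 7.08. HLA-DRB1 followed at 2.38 (adjusted p = 4.2e-05), HLA-DMA at 2.0 (6.14e-05), CIITA at 1.42 (0.000383) and HLA-DPB1 at 1.42 (0.000869). HLA-DMB differed by 1.15 (adjusted p = 0.000148), and HLA-DPA1 and CD74 each by 0.91 (0.0088 and 0.00185). HLA-DQA1 did not pass, at 0.13 with a 95% interval of -0.09 to 0.36 (adjusted p = 0.285). The HLA-DR chains thus had the largest values and HLA-DQA1 the smallest. The added 1 TPM compresses low genes: HLA-DPA1 and CD74 share a value, with means of 0.168 and 1.23 TPM for HLA-DPA1 and of 117 and 222 TPM for CD74. With primary-assembly transcripts alone 2 members were called, since CD74 and CIITA were then the members that passed the filter.

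Among the other class II genes, HLA-DOB moved the opposite way. HLA-DOB encodes the beta chain of HLA-DO, which restrains HLA-DM. It stood at 15.4, 13.6 and 13.9 TPM in MOLM-13 DMSO and at 4.53, 7.09 and 7.16 TPM in MONO-MAC-6 DMSO, a difference of -1.10 (adjusted p = 0.00372), and its groups did not overlap. It overlaps AL669918.1 on the same strand, which was at 1.62 ± 0.195 TPM in MOLM-13 DMSO and at 3.17 ± 2.12 TPM in MONO-MAC-6 DMSO (SD, n = 3). Its partner gene HLA-DOA and the HLA-DRB4, HLA-DRB5, HLA-DQA2 and HLA-DQB2 genes did not reach the filter. HLA-DRB3, a second HLA-DR beta chain that only some haplotypes carry, averaged 0.378 TPM in MONO-MAC-6 and 0.00952 TPM in MOLM-13.

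Around the members, the line difference was broad. The processing list holds proteases and a reductase that prepare antigen and trim CD74. Of its 9 genes, 8 were tested, and 7 were called as higher and 1 as lower in MONO-MAC-6. Of all tested genes 49.1% were called, and 30.6% were called as higher in MONO-MAC-6. The cathepsins CTSL and CTSH differed by 3.08 and 2.67, and IFI30, a lysosomal thiol reductase, by 2.33 (adjusted p = 6.12e-05, 1.03e-05 and 2.67e-05). CTSB, a further cathepsin, went the other way, at -5.31 (adjusted p = 1.8e-06), with 82.4 ± 4.66 TPM in MOLM-13 and 1.11 ± 0.115 TPM in MONO-MAC-6 (SD, n = 3). The 3 class I comparators HLA-B, HLA-C and B2M were called as higher in MONO-MAC-6, by 1.27 to 1.49, as were 30.6% of all tested genes. Higher levels there were thus not particular to class II.

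Of 7 tested factors that bind class II promoters 3 were called, where 49.1% of all tested genes were. That share is near the background and is no result about the factors. RFXANK was called as higher in MONO-MAC-6 (0.59, adjusted p = 0.04), and NFYB and RFXAP as lower (-0.90 and -0.67, adjusted p = 0.00353 and 0.00698). The RFXANK call was lost in 6 of 13 alternatives, median-ratio scaling and the removal of a length trend among them. Of 7 tested genes that act upstream of CIITA 3 were called, again near the share of all genes. IFNGR1, a chain of the interferon-gamma receptor, and SPI1, the myeloid factor PU.1, were called as higher (1.17 and 0.70, adjusted p = 0.00196 and 0.000419). The kinase gene JAK1 was called as lower (-0.57, adjusted p = 0.0244). PRDM1, a known repressor of CIITA, was called as lower in MONO-MAC-6 at -0.66 (adjusted p = 0.00198). The costimulatory ligand CD86 was called as higher, by 1.28 (adjusted p = 0.00272). CD83, which protects class II from ubiquitination, was called as higher by 0.90 (adjusted p = 0.00316), and MARCHF8, a ubiquitin ligase of class II, as lower by -1.12 (adjusted p = 0.0166). The calls were 1 of 2 tested repressors, 1 of 4 costimulatory genes and 2 of 3 turnover genes, beside 49.1% of all tested genes. Such small counts are no result about these lists.

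Cell type markers were read beside these differences. The summed level of 8 myeloid and monocyte markers ran from 305 to 355 TPM in MOLM-13 DMSO and from 3200 to 3770 TPM in MONO-MAC-6 DMSO, with 6 and 7 of 8 at 1 TPM or more. LYZ, the lysozyme gene, made up most of this gap, at 134 ± 10.4 TPM and 3413 ± 301 TPM (SD, n = 3). Of the 7 markers tested, 5 had a lower value in MONO-MAC-6 (median -0.24 over the 7), and LYZ and CD14 were called as higher there and ITGAM (-0.94) and MPO (-0.87) as lower. CD14, the monocyte co-receptor of the list, averaged 0.295 TPM in MOLM-13 and 3.14 TPM in MONO-MAC-6. B cell markers summed to 2.03 to 3.94 TPM and 9.94 to 11.1 TPM, with MS4A1 and BLK under 0.1 TPM in every group. T cell markers summed to at most 0.466 TPM in MOLM-13 and 4.38 TPM in MONO-MAC-6. Among the dendritic cell markers CD1C, CLEC9A, XCR1 and FCER1A were under 0.1 TPM in every group, and the sum of that list was 17.9 to 21.0 TPM in MOLM-13 DMSO and 11.4 to 15.3 TPM in MONO-MAC-6 DMSO. That sum was mostly BATF3, at 18.5 ± 1.70 and 8.87 ± 2.18 TPM (SD, n = 3). ZBTB46 went the other way, at 0.171 and 3.97 TPM, and was called as higher in MONO-MAC-6 (2.09, adjusted p = 1.71e-05).

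In MOLM-13, no class II gene passed the threshold with A9. CD74 stood at 106, 114 and 90.5 TPM with A9, beside 124, 115 and 111 TPM with DMSO, and the groups overlapped. HLA-DMA stood at 2.95, 3.38 and 2.07 TPM with A9, beside 2.37, 2.17 and 1.76 TPM with DMSO, and overlapped as well. These were the 2 members that passed the filter. Their log2 fold changes were -0.18 for CD74 (SE 0.099, 95% interval -0.41 to 0.06, adjusted p = 0.764) and 0.28 for HLA-DMA (SE 0.168, 95% interval -0.12 to 0.69, adjusted p = 0.778) by limma. None of the 2 was called, where 0.154% of all 11668 tested genes were (18 genes), and none had an unadjusted p under 0.05. None of the 2 had groups that did not overlap, where 15.2% of all tested genes had.

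The 8 members under the filter in MOLM-13 stayed under 1 TPM in all 6 samples. HLA-DRA was at 0.370, 0.385 and 0.384 TPM with A9, within the DMSO range of 0.186 to 0.387 TPM. CIITA was at 0.551, 0.582 and 0.327 TPM with A9 beside 0.440, 0.437 and 0.271 TPM with DMSO. HLA-DQB1 was the member whose groups parted, at 0.428, 0.615 and 0.402 TPM with A9 beside 0.177, 0.293 and 0.269 TPM with DMSO. Fitted without the filter, its log2 fold change was 0.25 (unadjusted p = 0.0285, adjusted p = 0.699 over 24592 genes), and none of the 10 members was called. HLA-DQB1 overlaps the antisense gene HLA-DQB1-AS1, and its level rests on values under 1 TPM.

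In MONO-MAC-6 no member passed the threshold with A9 either, and CIITA had the largest difference of the 9 tested. CIITA stood at 4.93, 4.68 and 3.77 TPM with A9 and at 2.10, 3.01 and 3.09 TPM with DMSO, so all A9 samples lay above all DMSO samples. Its log2 fold change was 0.55 (SE 0.163, 95% interval 0.16 to 0.95), with an unadjusted p of 0.013 and an adjusted p of 0.138 by limma. Of 9 tested members 0 were called, where 3.44% of all 12952 tested genes were called. CIITA was the member with an unadjusted p under 0.05, as were 2685 of all genes tested. Without DMSO sample 1, the lowest of its group, CIITA was called at 0.43 with an adjusted p of 0.0282, in a fit where 3280 of 13009 genes were called. With a length trend removed it was 0.26 (adjusted p = 0.259). Over all 13 alternatives its adjusted p ran from 0.000524 to 0.451. The lowest came from averaging libraries by their second number, where 8790 of 12952 genes were called. Such averages mix the 3 samples and keep only the spread between repeats, so that value does not measure the spread between samples. Among the other alternatives the lowest was the 0.0282 without DMSO sample 1.

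**Figure D3:**
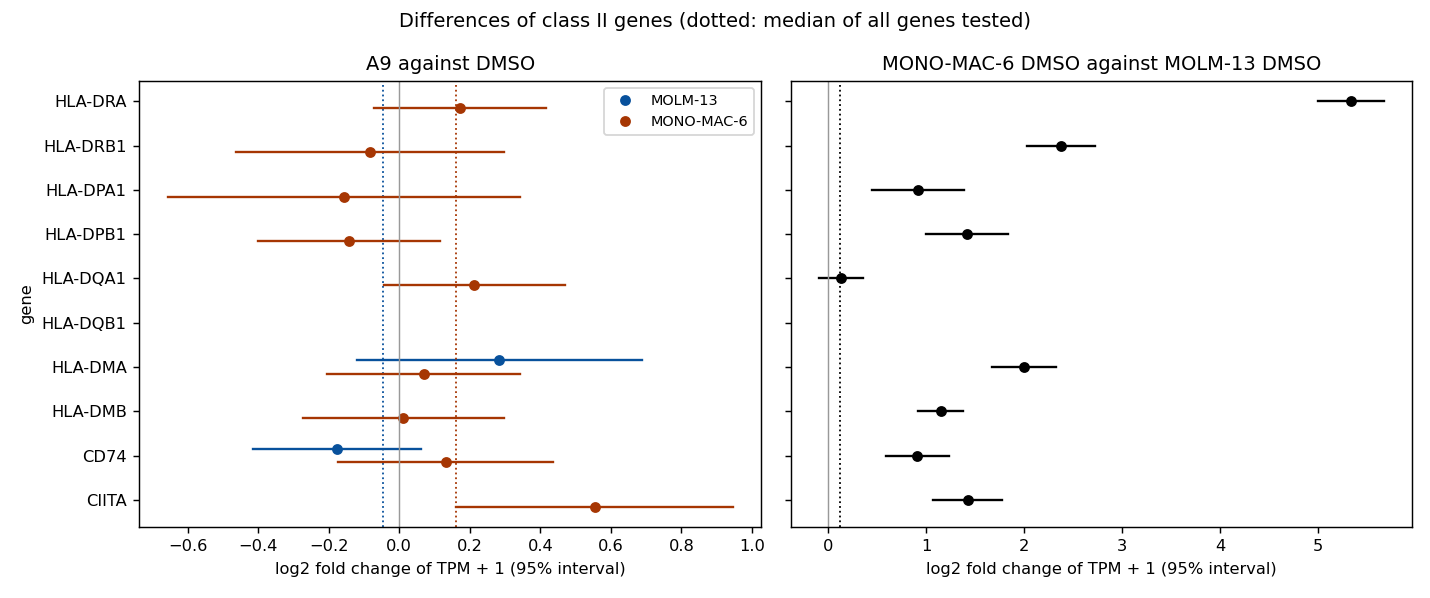
Log2 fold change of TPM + 1 with its 95% interval (horizontal axis) for each class II gene, for A9 against DMSO in MOLM-13 (blue) and MONO-MAC-6 (brown) and for MONO-MAC-6 against MOLM-13 in DMSO (black). Dotted lines give the median over all genes tested. Of the A9 intervals, that of CIITA in MONO-MAC-6 alone lies above 0, while 8 of 9 members lie above 0 between the lines.

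None of the chains passed the threshold, and each had a smaller difference than CIITA. HLA-DRA stood at 59.4, 58.6 and 54.4 TPM with A9 beside 45.9, 56.1 and 51.0 TPM with DMSO, a log2 fold change of 0.17 (95% interval -0.07 to 0.42, adjusted p = 0.36), and the groups overlapped. HLA-DRB1 stood at 5.37, 4.56 and 4.43 TPM beside 5.71, 5.70 and 4.10 TPM, at -0.08 (95% interval -0.46 to 0.30, adjusted p = 0.742). For both HLA-DR chains the A9 and DMSO samples overlapped. HLA-DPB1 stood at 2.88, 2.94 and 2.65 TPM beside 3.30, 3.24 and 3.10 TPM, all A9 samples below all DMSO samples, at -0.14 (95% interval -0.40 to 0.12, adjusted p = 0.451). HLA-DPA1 stood at 0.648, 1.12 and 1.18 TPM beside 0.695, 1.65 and 1.34 TPM, at -0.16 (adjusted p = 0.64).

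HLA-DQA1 stood at 1.52, 1.29 and 1.36 TPM with A9 beside 0.980, 1.10 and 1.11 TPM with DMSO, all A9 samples above all DMSO samples, at 0.21 (95% interval -0.04 to 0.47, adjusted p = 0.307). With a length trend removed the value was -0.09, so the change of HLA-DQA1 is given no direction. Its retained-intron transcript ENST00000460633 averaged 0.567 TPM with A9 and 0.380 TPM with DMSO, which is the larger part of the difference in TPM. HLA-DQB1 stayed under the filter, with values from 0.106 to 0.302 TPM in the 6 samples. Groups that did not overlap were thus seen in 3 of the 9 tested members (CIITA, HLA-DQA1 and HLA-DPB1), 2 higher and 1 lower with A9 in the deposited TPM, where 38.2% of all tested genes had such groups. That share is near the background and is no result about the members.

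HLA-DM and CD74 had small differences. HLA-DMA stood at 11.2, 13.0 and 11.7 TPM with A9 beside 10.8, 11.5 and 11.7 TPM with DMSO, at 0.07 (95% interval -0.21 to 0.34, adjusted p = 0.712). HLA-DMB stood at 1.75, 2.07 and 1.59 TPM beside 1.79, 1.89 and 1.64 TPM, at 0.01 (95% interval -0.27 to 0.30, adjusted p = 0.956). CD74 stood at 248, 238 and 237 TPM beside 182, 241 and 244 TPM, at 0.13 (95% interval -0.17 to 0.44, adjusted p = 0.532). DMSO sample 1 alone set the CD74 mean apart: without it the log2 fold change was -0.0065. The median over the 9 members was 0.07, beside 0.16 over all tested genes. Under median-ratio scaling, which moved that all-gene median to 0.007, HLA-DRA, HLA-DMA, HLA-DMB and CD74 changed sign, and the changes of these 4 are therefore given no direction.

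The CIITA level itself is a sum over 18 transcripts, and a part of them runs into DEXI, a gene on the opposite strand at 10928891 to 10942460 on chromosome 16. DEXI was at 39.6 to 47.4 TPM in the 4 group means, far above CIITA, and without known strand its reads cannot be told from those of CIITA transcripts that reach it. The 5 CIITA transcripts that reach the DEXI span summed to 1.12, 1.11 and 1.29 TPM with DMSO and to 1.26, 1.5 and 1.01 TPM with A9 in MONO-MAC-6. The 13 that end before it summed to 0.980, 1.90 and 1.80 TPM with DMSO and to 3.67, 3.17 and 2.76 TPM with A9. The difference in CIITA thus lay mostly in the transcripts clear of DEXI, with means of 1.56 ± 0.505 and 3.20 ± 0.456 TPM (SD, n = 3), and the others overlapped between the groups. This split was chosen after the values were seen and has no test of its own.

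**Figure D4:**
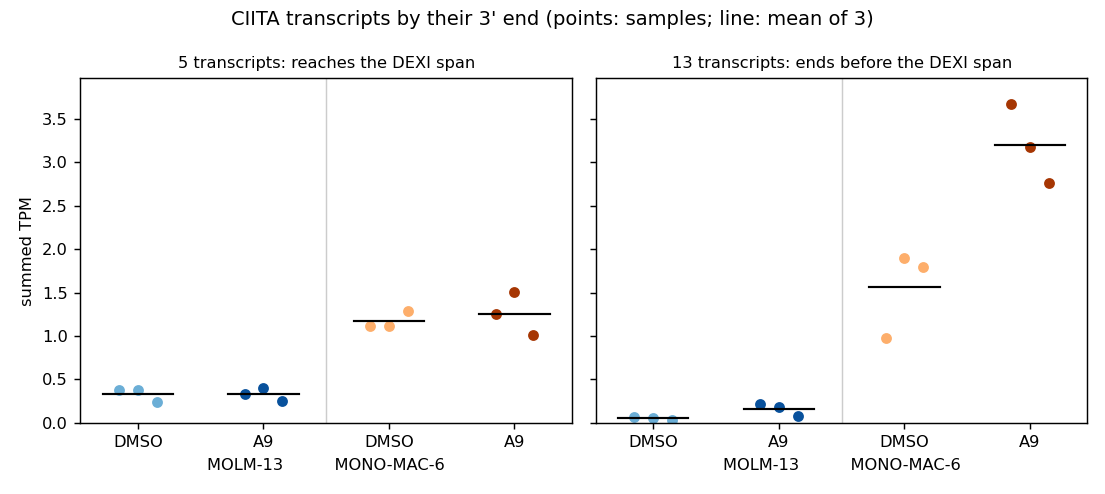
Summed TPM (vertical axis, starting at 0) of the 5 CIITA transcripts that reach the span of DEXI (left) and of the 13 that end before it (right), in the 3 samples of each group (points) with their mean (line). In the right panel the A9 samples of MONO-MAC-6, from 2.76 to 3.67 TPM, all lie above its DMSO samples.

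In MOLM-13 the same split gave 0.376, 0.382 and 0.237 TPM with DMSO and 0.336, 0.402 and 0.249 TPM with A9 for the transcripts that reach DEXI. Those that end before it were at 0.0641, 0.0550 and 0.0348 TPM with DMSO and at 0.215, 0.180 and 0.0776 TPM with A9, so these groups parted too, at levels close to 0. Most of the CIITA level of MOLM-13 therefore stood on transcripts that overlap DEXI. Among single transcripts, ENST00000576601 is annotated as protein-coding but is only 626 bases long. It averaged 0.480 TPM with DMSO and 1.16 TPM with A9 in MONO-MAC-6 and was at 0 in both MOLM-13 group means. ENST00000618327, also protein-coding, averaged 0.294 and 0.587 TPM in MONO-MAC-6 and was at 0 in MOLM-13. Other protein-coding transcripts differed in MONO-MAC-6. The longest, ENST00000324288 (16059 bases), averaged 0.604 TPM with DMSO and 0.770 with A9. ENST00000381835 averaged 0.276 and 0.486 TPM, and ENST00000636238 0.0161 and 0.151 TPM. ENST00000646979 was lower with A9, at 0.448 and 0.363 TPM.

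Whether A9 acted differently in the lines was tested with an interaction term fitted on all 12 samples and 13488 genes. All tested members but CD74 and HLA-DMA were under 1 TPM in MOLM-13 and passed the filter through MONO-MAC-6 alone. The added 1 TPM compresses any MOLM-13 change of such genes. For them the term therefore mostly repeats the MONO-MAC-6 change and cannot decide whether the lines differ. By limma none of 9 tested members was called, where 3.08% of all tested genes were, and 1 of 9 had an unadjusted p under 0.05. The largest value was that of CIITA, whose change was 0.45 higher in MONO-MAC-6 (95% interval 0.03 to 0.87, unadjusted p = 0.0388, adjusted p = 0.257). CD74 followed at 0.31 (95% interval -0.06 to 0.68, adjusted p = 0.345), and at 0.08 under median-ratio scaling. The other 7 lay between -0.21 (HLA-DMA, adjusted p = 0.501) and 0.20 (HLA-DQA1, adjusted p = 0.342), with HLA-DRA at 0.07 (0.766), HLA-DMB at -0.04 (0.83), HLA-DRB1 at -0.08 (0.766), HLA-DPA1 at -0.09 (0.809) and HLA-DPB1 at -0.16 (0.595). The median of the 9 was -0.04, beside 0.19 over all tested genes.

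While the class II genes themselves passed no threshold, some lysosomal genes that prepare peptides for them rose with A9 in MONO-MAC-6. Of 8 tested genes of the processing list, 4 were called as higher and none as lower, beside 3.44% called over all tested genes. The median was 0.60, beside 0.16 over all tested genes. The list was chosen with earlier results of these data known, so this count is a description. IFI30, which reduces disulphide bonds of antigens in the lysosome, stood at 36.8, 34.8 and 40.6 TPM with DMSO and at 156, 186 and 183 TPM with A9, which is 2.20 on the log2 scale (SE 0.104, adjusted p = 0.000914). CTSD, an aspartic protease, stood at 159, 145 and 158 TPM with DMSO and at 567, 722 and 683 TPM with A9, at 2.08 (SE 0.11, adjusted p = 0.0012). For both genes every A9 sample lay far above every DMSO sample, and both calls held in all 14 alternatives.

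CTSH, a cysteine protease, rose by 0.72 and CTSZ, a carboxypeptidase, by 0.62 (adjusted p = 0.036 and 0.0354). Both lost the call in 8 of 14 alternatives, which include median-ratio scaling (highest adjusted p = 0.227 and 0.2). CTSS, the protease best known for trimming CD74, stood at 44.3, 46.1 and 51.4 TPM with DMSO and at 37.8, 43.4 and 41.5 TPM with A9, all A9 samples below all DMSO samples, with a log2 fold change of -0.20 that did not pass (adjusted p = 0.301). In MOLM-13 limma called none of 7 tested genes of this list, and 1 had an unadjusted p under 0.05. There IFI30 stood at 6.04, 6.49 and 7.40 TPM with DMSO and at 6.81, 7.33 and 6.18 TPM with A9, with overlap, and CTSD at 38.7, 40 and 42.9 TPM with DMSO and at 49.8, 55.8 and 50.9 TPM with A9, at 0.36 (adjusted p = 0.198). The interaction was called for IFI30 (2.17, adjusted p = 3.84e-05), CTSD (1.72, adjusted p = 7.52e-05) and CTSH (0.76, adjusted p = 0.0144). CTSH was under the filter in MOLM-13, at 0.202 TPM with DMSO and 0.167 with A9, so its call rests on MONO-MAC-6.

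**Figure D5:**
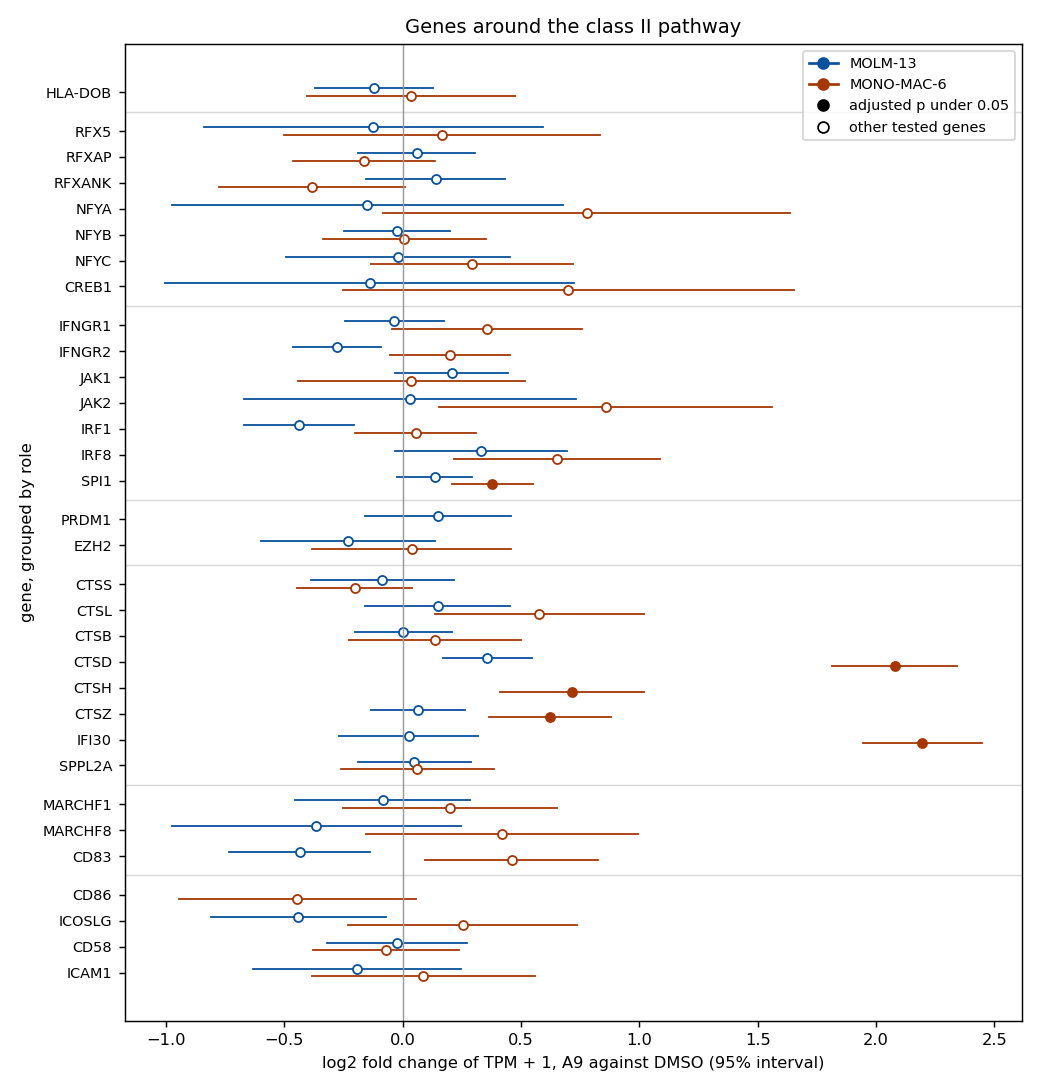
Log2 fold change of TPM + 1 for A9 against DMSO with its 95% interval (horizontal axis) for each tested gene of the lists around class II, grouped by role, in MOLM-13 (blue) and MONO-MAC-6 (brown). Filled points have an adjusted p under 0.05 by limma: IFI30, CTSD, CTSH, CTSZ and SPI1, all in MONO-MAC-6.

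Upstream of CIITA, SPI1 rose in MONO-MAC-6 by 0.38 (adjusted p = 0.0437), from 271, 246 and 268 TPM to 342, 336 and 344 TPM, without overlap. It was the 1 called gene of 7 tested, beside 3.44% called over all tested genes. Its call was lost in 8 of 14 alternatives, median-ratio scaling among them. The median of the 7 was 0.36, beside 0.16 over all tested genes. IRF8, a myeloid factor, stood at 186, 258 and 311 TPM with DMSO and at 391, 383 and 389 TPM with A9, at 0.65 (adjusted p = 0.123). In IRF8 DMSO sample 1 was the lowest, as it was in CIITA, CD74 and HLA-DRA. Without that sample 3280 of 13009 tested genes were called, beside 446 with all samples and 67 to 217 when any other single sample was left out. The list genes in that fit were looked at after the values were seen. Of the 7 upstream genes 4 were then called as higher (IFNGR1, IRF8, JAK2 and SPI1), beside 5 higher and 1 lower (CTSS) of 8 processing genes. In the same fit 1 of 7 promoter-binding factors was called as higher and 2 as lower (NFYA, RFX5 and RFXANK). CD83 was called as higher there, and CD86 and HLA-B as lower.

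With all samples in the fit, the remaining lists had no call in MONO-MAC-6. Limma called none of 7 promoter-binding factors, 3 genes of class II turnover, 4 tested costimulatory genes, 3 class I genes, the 1 tested repressor or HLA-DOB, and 1 turnover and 1 class I gene had an unadjusted p under 0.05. In MOLM-13 none of these lists had a call either, nor had the 7 upstream genes, of which 2 had an unadjusted p under 0.05, as had 1 turnover, 1 costimulatory and 2 class I genes. All 3 class I genes had A9 samples wholly below the DMSO samples in MOLM-13, where 15.2% of all tested genes parted, with log2 fold changes from -0.39 (HLA-B, adjusted p = 0.164) to -0.09 (B2M, adjusted p = 0.766). In MONO-MAC-6 all 3 parted as well, where 38.2% of all tested genes did, with HLA-B and HLA-C lower (-0.26 and -0.16, adjusted p = 0.11 and 0.282) and B2M higher (0.14, adjusted p = 0.347). CD83 was called in the interaction at 0.89 (adjusted p = 0.0285). It stood at 5.23, 5.09 and 5.03 TPM with DMSO and at 3.71, 3.96 and 2.98 TPM with A9 in MOLM-13, and at 8.60, 11.5 and 11.3 TPM and then 14.0, 16.4 and 13.7 TPM in MONO-MAC-6, so its A9 samples all lay below DMSO in the first line and all above DMSO in the second. Within each line CD83 did not pass (adjusted p = 0.344 and 0.166).

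Marker levels were read beside the A9 comparisons. The summed level of the monocyte list went from 3200 to 3770 TPM with DMSO to 7730 to 8020 TPM with A9 in MONO-MAC-6, and from 305 to 355 TPM to 511 to 585 TPM in MOLM-13. LYZ made up nearly all of the rise, from 3413 to 7681 TPM and from 134 to 327 TPM in the group means. The median log2 fold change of the 7 tested markers was 0.25 in MONO-MAC-6 and 0.16 in MOLM-13, beside 0.16 and -0.05 over all tested genes. CD14 was called in MONO-MAC-6 (1.77, adjusted p = 0.00256), and LYZ in both lines (1.17 and 1.29, adjusted p = 0.00269 and 0.00376). Limma's interaction was called for CD14 (1.73, adjusted p = 0.000206) and for the B cell marker CD79B (-0.79, adjusted p = 0.0388). Both were under the filter in MOLM-13. There CD14 averaged 0.295 TPM with DMSO and 0.335 with A9, and CD79B 0.0142 and 0.0120 TPM. These calls thus rest on the change in MONO-MAC-6, and a change near 0 in MOLM-13 could not show on this scale. The CD14 interaction was called in all 20 alternatives and that of CD79B in 6 of 19. MPO in MONO-MAC-6 and ITGAM in MOLM-13 each had a value of -0.40 that did not pass (adjusted p = 0.42 and 0.814). B cell markers summed to 6.32 to 7.21 TPM with A9 in MONO-MAC-6, under the DMSO range of 9.94 to 11.1 TPM, and dendritic cell markers to 8.47 to 9.07 TPM, under 11.4 to 15.3 TPM. The part of these shifts in the processing and CIITA values was not tested.

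Across the 12 samples, the genes closest to CD74 after centring within each line were NUB1, APBB1IP, C11orf95, POP1 and UHRF2, with Pearson's r from 0.986 to 0.993 over log2(TPM + 1). Those closest to HLA-DRA were TAZ, PRR13, TMEM134, HMGN2 and DTNBP1, with r from 0.904 to 0.926. These are the top 5 of 8166 genes at 5 TPM or more in both lines, so high values are a product of the ranking, and the samples share lines, treatments and the low DMSO sample 1 of MONO-MAC-6. CD74 was the only member above that level in both lines, so no other member could be listed.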

How the data were processed

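The authors deposited 1 table per line with TPM per Ensembl transcript and library. Per the submitters' processing notes kallisto, limma and GRCh38 were used. Per the labels, poly(A) RNA was sequenced with paired ends, and the strand setting is not given in the sources used here. Of 207175 transcripts, 162526 matched GENCODE 29 and 15036 more, outside the primary assembly, were given a symbol from its HGNC table. The 29613 without a symbol held 5.94% to 7.48% of TPM per library and were left out. TPM were summed by symbol, and the 3 repeat libraries of a sample were averaged. Depth and counting error cannot be given for TPM.

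The R package limma 3.58.1 (R 4.3.3) was fitted to log2(TPM + 1) by lmFit and eBayes with trend and robust. A gene was tested where the samples of some group averaged 1 TPM or more, with two-sided p-values, Benjamini-Hochberg adjustment over all genes tested and a threshold of 0.05. The fit was tested on simulated data. With 3 samples against 3 an exact permutation test of 1 gene cannot go below p = 0.1. All 10 members were named, with other list genes when called (at most 4 per list and comparison). Values of IRF8, CTSS, HLA-DRB3, B2M, HLA-B, HLA-C, MPO and ITGAM were added after they were seen. Of the genes first listed, 2 are not reported here. The members and lists were chosen with earlier results of these data known. Each fit was repeated without a filter, at a minimum of 5 TPM, with 0.1 as pseudocount, with libraries averaged by second number, with median-ratio scaling, with a length trend removed (lowess), on primary-assembly transcripts alone, with a replicate block, and without each sample in turn. The split of CIITA transcripts and the alternatives for list genes were chosen after seeing the data.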

Additional observations from a re-analysis of the deposited data

Results flagged for a closer look

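The A9 effect differed between the lines by limma's interaction test for 4 genes around the class II pathway, on the log2(TPM + 1) scale as MONO-MAC-6 minus MOLM-13. Cell type markers were left out of this selection. Line and dose differ together here and cannot be told apart. IFI30 differed by 2.17 and CTSD by 1.72, and both were called in all 20 alternatives. CTSH differed by 0.757, was under the filter in MOLM-13, and was called in 15 of 20 alternatives. CD83 differed by 0.894 and was called in 11 of 20 alternatives, with the highest adjusted p at 0.0893. None of the 10 class II genes met this mark, and all of them but CD74 and HLA-DMA were under the filter in MOLM-13.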

How the results depend on the processing

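Of the values for the members, 24 of 26 kept their direction and call in MOLM-13, 100 of 114 in MONO-MAC-6, 156 of 168 in the interaction and all 105 between the lines, counting each alternative. Averaging libraries by their second number gave 2, 4 and 3 members called in MOLM-13, MONO-MAC-6 and the interaction. By construction such averages mix the 3 samples and keep only the spread between repeats. Leaving out 1 sample gave 0 to 1 members called in MONO-MAC-6, the 1 being CIITA without DMSO sample 1. Between the lines 4 members were called at a minimum of 5 TPM and 2 with primary-assembly transcripts alone, where fewer members passed the filter.

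In MONO-MAC-6 median-ratio scaling turned the sign of HLA-DRA (-0.0035), HLA-DMA (-0.097), HLA-DMB (-0.11) and CD74 (-0.047), and removing a length trend that of HLA-DQA1 (-0.093) and HLA-DMB (-0.094). Without 1 sample HLA-DMB ran from -0.056 to 0.066 and CD74 from -0.0065 to 0.20. In the interaction HLA-DRA was -0.17 with a pseudocount of 0.1, -0.13 with scaling, and -0.0039 to 0.14 without 1 sample. HLA-DPA1 was 0.0031 with that pseudocount and -0.28 to 0.045 without 1 sample, HLA-DPB1 -0.28 to 0.015, HLA-DMB -0.11 to 0.015, and HLA-DQA1 -0.24 without the length trend. The cause was not tested.

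The deviations from the group mean over tested genes were correlated between same-numbered DMSO and A9 samples. The values were 0.363, -0.0729 and 0.679 in MOLM-13 and -0.0296, 0.0892 and -0.0959 in MONO-MAC-6. In MOLM-13, DMSO sample 1 was closer to A9 sample 2 (0.633) than to A9 sample 1. Whether the numbers pair the samples cannot be told from these values, least of all in MOLM-13, and the main fits used no pairing. With a replicate block 0 members were called in MOLM-13, MONO-MAC-6 and the interaction, with 109, 105 and 210 genes called against 18, 446 and 416.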
